A study of Mus musculus with 4 samples.

Results

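The aminoacyl-tRNA synthetases are the enzymes that load each transfer RNA with its amino acid. The set described here holds 36 nuclear genes, 20 for enzymes of the cytosol and 16 for enzymes of the mitochondrion, out of 55450 genes in the authors' deposited table. Members were taken by gene symbol and not by their values, though earlier results of these data were known when the set was chosen. All 36 were found through their GENCODE M21 identifiers, and 1 of them, the methionine gene Mars1, is called Mars in that release. All 36 averaged at least 100 normalized counts, so no member was lost to a filter on low values.

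A synthetase joins an amino acid to its matching transfer RNA at the cost of ATP, and the ribosome depends on the loaded product. The mitochondrion translates its own genome and imports a separate set of synthetases for that purpose, encoded here by the genes whose symbols end in 2. Eprs encodes a bifunctional enzyme for glutamate and proline, while Gars and Kars each supply the cytosol and the mitochondrion from a single gene. When charged transfer RNA runs short, the kinase GCN2 phosphorylates the initiation factor eIF2, the factor ATF4 is made, and ATF4 induces a group of cytosolic synthetase genes together with genes for amino acid synthesis and uptake. Activated T cells raise protein synthesis and amino acid uptake strongly.

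The data come from 4 cultures of mouse Th17 cells, the CD4 helper T cells that make IL-17. Every culture came from naive CD4 T cells with a Cas9 transgene, from mice 8 to 12 weeks old, stimulated for 24 h with anti-CD3 (0.25 µg/mL) and anti-CD28 (1 µg/mL), infected with a PSIN retrovirus and polarized for 72 h with TGF-β (0.3 ng/mL) and IL-6 (20 ng/mL). In 2 cultures the virus carried a guide against Adarb1 (sgAdarb1), the gene of the RNA-editing enzyme ADAR2, and in 2 it was empty, and each of 2 donor mice gave a culture to each group, per the series' design text. The empty vector carried no guide, so these controls hold Cas9 without a cut. The comparison asks which transcripts differ between these groups. The groups are named from the sample titles, and for 2 of the 4 samples the treatment tag goes against the title.

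The values used are the authors' mean over all libraries and their fold change per gene. The table also has 4 library columns, but their names match no sample label and they were not used, so no value per culture is given here, and the depth of a library and the spread between cultures enter only through the authors' standard errors. Which group is the numerator of the fold changes is not written in the table. They are given as sgAdarb1 over empty vector, as the design text orders the groups, and every sign below turns if the authors used the reverse. The markers of the labelled cells were present, with means in the authors' deposited table of 15286 normalized counts for Cd4, 5149.6 for Cd3e, 1756 for Il17a and 3739 for Il17f. Among markers of other cells, the myeloid and mast cell genes Csf1r, Lyz2 and Cpa3 had means of 11.7 to 28.7 in the authors' deposited table, Ms4a1 of B cells had 177 and Cd8a of CD8 T cells 287. Cpa3 was at -5.66 ± 1.26 (log2 fold change, SE) in the authors' deposited table, with an adjusted p (DESeq2, Benjamini-Hochberg) of 0.071. Csf1r (1.35 ± 1.32), Lyz2 (0.94 ± 1.16) and Cd8a (0.74 ± 0.71) lay above 0 there. The SE of Ms4a1 in the authors' deposited table was 3.97 (log2). The part of other cells in the values below was not tested. Adarb1 mRNA, the target of the guide, was at 0.11 ± 0.12 in the authors' deposited table, and as cutting by Cas9 need not lower a transcript's level, this does not check the labels. In bulk RNA, fewer cells of a type and less RNA per cell cannot be told apart.

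No synthetase gene passed the test. Of the 36 members 0 had an adjusted p (DESeq2, Benjamini-Hochberg) below 0.05 in the authors' deposited table, beside 0 of 29383 genes (0%), and the members' adjusted p was 1.00 throughout. At an unadjusted p below 0.05 the authors' deposited table held 0 of 36 members, against 61 of 29383 genes (0.208%), a background so low that a count of 0 is near it. A calibrated test without any difference would put a share of 0.05 there. The Wald statistics of genes averaging at least 10 had a robust spread of 0.541, also below that of a standard normal. The deposited p-values thus run higher than those of a calibrated test, and why was not tested. Log2 fold changes lay between -0.20 (Lars2) and 0.22 (Vars2) in the authors' deposited table, with 18 members above 0 and 18 below. The median of the members was -0.0026, beside 0.0044 over the 9550 genes averaging at least 100. Their median size without regard to sign was 0.031, against 0.071 for those 9550 genes. The members are not matched to these genes in level, with a median mean of 1512 against 694 normalized counts. Genes averaging at least 1000 had a median size of 0.056, and the cytosolic members, all of that level, 0.028. The mitochondrial members had 0.054. With a median mean of 283 normalized counts they are not matched to either set of genes.

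The intervals around these estimates give the range of differences that the deposited SE leaves around each. They are not the detection limit of the adjusted test, which needs a larger difference. The largest Wald statistic of all 29383 genes, 4.68, did not pass it. The 95% interval of every one of the 36 members lay within a log2 difference of 1 in either direction, that is, less than a 2-fold change, by the SE of the authors' deposited table. Of the 9550 genes averaging at least 100, 97.0% did so too, and the members' count is near that background. All 20 cytosolic genes and 4 of the 16 mitochondrial genes (Mars2, Hars2, Iars2 and Tars2) had intervals within 0.5, a 1.41-fold change. Among the 9550 genes of like minimum mean 60.6% had an interval within 0.5, and among the 3664 averaging at least 1000, as all cytosolic members do, 97.8% did, so the cytosolic count is near its background. Within 0.25, a 1.19-fold change, lay the intervals of 8 members: Dars, Hars, Iars, Kars, Lars, Nars and Tars of the cytosol, and Iars2 of the mitochondrion. The background was 769 of 9550 genes, and all 769 of these were among the 3664 averaging at least 1000. All 8 members average at least 1000 too. For the 20 cytosolic genes alone the count was 7, beside 769 of those 3664 genes. These counts were not tested. The difference in width between the compartments follows the level of the genes: the SE fell with the mean normalized count across the 36 members (r = -0.99 on log2 scales, a description over genes that share the same libraries), as it does by construction in a count model.

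**Figure D1:**
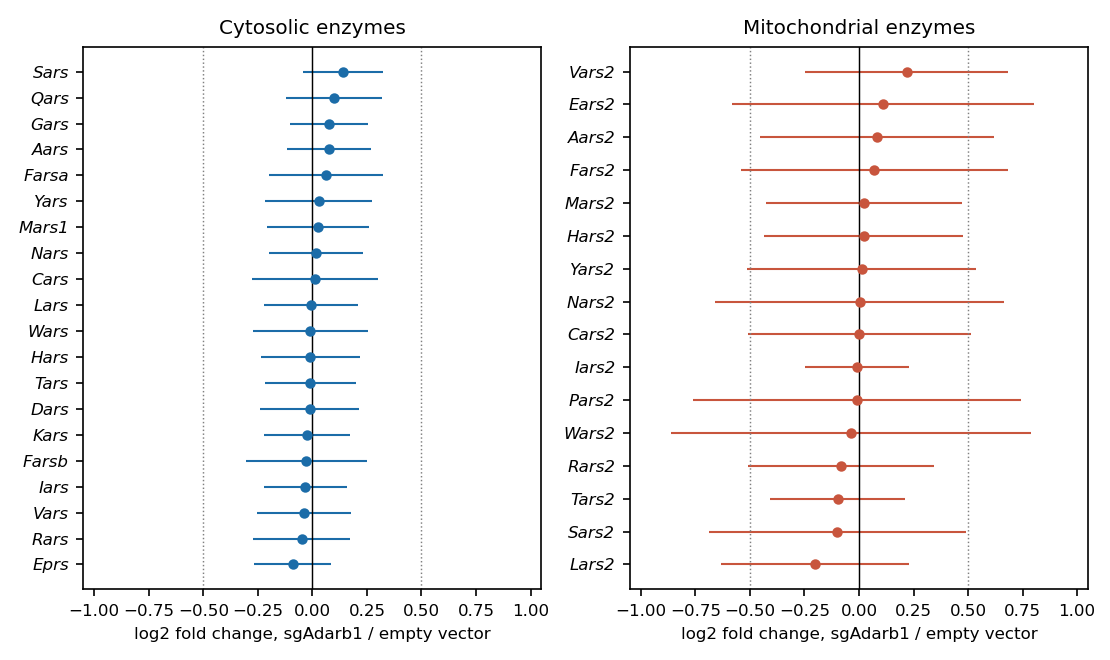
Log2 fold change (x axis, sgAdarb1 over empty vector) of the 20 cytosolic and 16 mitochondrial synthetase genes, each ordered by value. Points are the authors' estimates, bars are 95% intervals from the authors' SE, and dotted lines mark 0.5 in either direction. Every bar crosses 0, all cytosolic bars end within the dotted lines, and 12 of the 16 mitochondrial bars reach past them.

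Wald statistics, the fold change divided by its SE, put the estimates in units of their error. Of the 36 members 1 (Sars, 1.50) was beyond 1 in size in the authors' deposited table. The background was 963 of 9550 genes (10.1%) averaging at least 100. For the 20 cytosolic genes, all averaging at least 1000, it was 1 of 20 against 586 of 3664 genes (16%). These shares describe the list beside other genes and were not tested, since genes are not replicates. Members' SE lay from 0.978 to 1.10 times the running median SE of genes with a like mean, and the highest ratio was that of Vars.

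**Figure D2:**
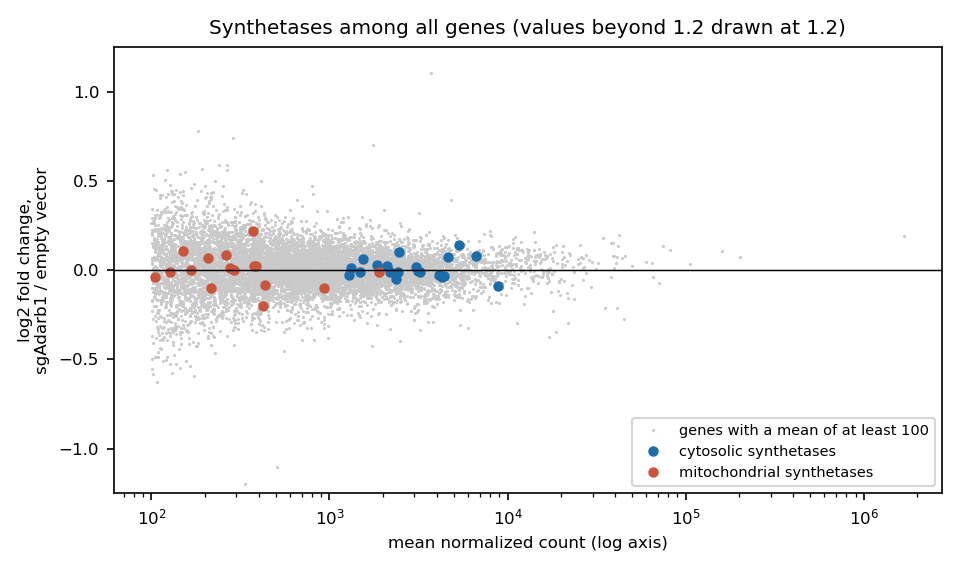
Mean normalized count (x axis, log scale) against log2 fold change (y axis) for the genes averaging at least 100 (grey), the cytosolic synthetases (blue) and the mitochondrial synthetases (red). The synthetases sit between -0.20 and 0.22, inside the grey cloud at their own level.

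Levels differed widely within the family. They are compared here as the mean normalized count per kilobase of annotated exon, over all 4 libraries, since longer transcripts collect more reads. Cytosolic genes had a median of 569 per kilobase (range 199.6 to 2118) and mitochondrial genes 48.0 (range 17.7 to 215). The single crossing was between Iars2, the highest mitochondrial gene at 215 per kilobase, and Cars, the lowest cytosolic gene at 199.6. With the length of the longest transcript in place of all exons that crossing was gone, at 349 against 408. Together the 36 genes took 0.414% of all normalized counts, 0.377% for the cytosolic and 0.0374% for the mitochondrial genes. No error was computed for a level, because the library columns were not used, so neighbours in this order are not shown to differ.

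The top of the order was held by cytosolic genes. Gars, which serves both compartments, led at 2118 per kilobase, above 97.9% of the genes averaging at least 10. It was followed by Sars at 1042 and Hars, the histidine enzyme, at 987 per kilobase. Kars, the other enzyme of both compartments, stood next at 924. At the low end of the cytosolic set were Cars for cysteine, Yars for tyrosine at 312 and Farsa, the alpha subunit for phenylalanine, at 339 per kilobase. Its partner Farsb, the beta subunit of the same enzyme, was at 492. Among mitochondrial genes Rars2 for arginine (156) and Tars2 for threonine (134) came after Iars2, and Ears2 (29.2), Nars2 (23.9) and Wars2 (17.7) were lowest. Lengths move some places: with the longest transcript Eprs went from 487 to 1565 per kilobase, since its gene model holds 18102 exonic bases against 5638 in its longest transcript.

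For each amino acid with a gene in both sets the cytosolic gene was the more abundant per kilobase. This held in 17 of 17 pairs, counting Eprs against Ears2 and against Pars2, and Farsa and Farsb each against Fars2. The ratio had a median of 11.3 and ran from 3.56 (Yars over Yars2) to 29.2 (Nars over Nars2). With the longest transcript the cytosolic gene was also the higher in 17 of 17 pairs, with a median ratio of 10.3. The range was then wider, from 2.83 (Iars over Iars2) to 51.0 (Eprs over Ears2). Which pairs stand at the ends thus depends on the length used.

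**Figure D3:**
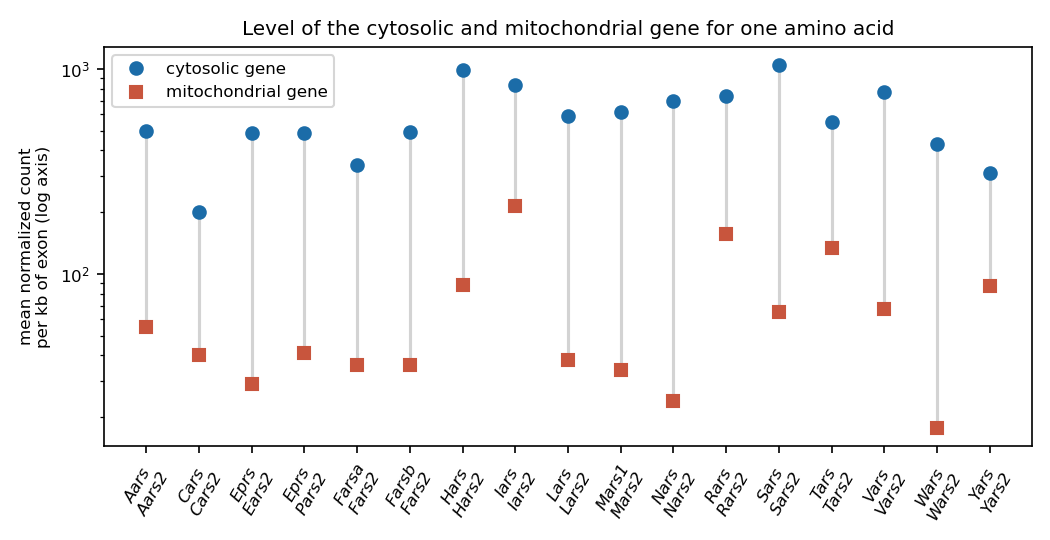
Mean normalized count per kilobase of exon (y axis, log scale) of the cytosolic gene (blue circle) and the mitochondrial gene (red square) for the same amino acid, 17 pairs. Each circle lies above its square, from 3.56-fold for Yars and Yars2 to 29.2-fold for Nars and Nars2; no error is drawn, because the library columns were not used.

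Of the cytosolic enzymes, 8 are bound into the multisynthetase complex, a large assembly held together by the scaffold proteins AIMP1, AIMP2 and the product of Eef1e1. Their genes had 2 positive and 6 negative log2 fold changes with a median of -0.018, and after removal of a linear trend on GC content and length 3 and 5. None passed, and the background median over genes averaging at least 1000 was -0.0017. Eprs (chromosome 1, 185363044 to 185428360, mm10; ENSMUSG00000026615.14), which has the highest mean of the family at 8822 normalized counts, was at -0.090 ± 0.091 (log2, SE) in the authors' deposited table. Its interval ran from -0.27 to 0.087, and among members below 0 it had the smallest unadjusted p (0.318 in the authors' deposited table). Rars, the arginine enzyme (chromosome 11, 35808381 to 35834506), was at -0.050 ± 0.11, averaging 2378 normalized counts, in the authors' deposited table (interval from -0.27 to 0.17, unadjusted p = 0.664). Qars, the glutamine enzyme (chromosome 9, 108507706 to 108515941), lay on the other side at 0.10 ± 0.11, averaging 2447 normalized counts, in the authors' deposited table (interval from -0.12 to 0.32, unadjusted p = 0.376).

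The other 5 enzymes of the complex had values of at most 0.033 in size. Iars for isoleucine was at -0.033 ± 0.10 and Kars for lysine at -0.024 ± 0.10 in the authors' deposited table. Dars, the aspartate enzyme, stood at -0.012 ± 0.12 and Lars, the leucine enzyme, at -0.0067 ± 0.11 in the authors' deposited table. Mars1, which charges both initiator and elongator transfer RNA with methionine, was at 0.025 ± 0.12 in the authors' deposited table. Dars, Lars and Mars1 changed sign after removal of the GC and length trend, to 0.052, 0.0056 and -0.010. The scaffold genes did not pass either: the authors' deposited table has Aimp1 at 0.017 ± 0.15, Aimp2 at -0.11 ± 0.21 and Eef1e1 at -0.035 ± 0.16.

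The 12 cytosolic genes outside the complex had 7 positive and 5 negative values with a median of 0.014, and 6 and 6 with the trend removed. Sars (chromosome 3, 108424865 to 108445209; ENSMUSG00000068739.13), whose enzyme charges the serine transfer RNAs and also starts the path to selenocysteine, had the smallest unadjusted p of all 36 members. It was at 0.14 ± 0.093, averaging 5358 normalized counts, in the authors' deposited table, an estimated 1.10-fold difference. The interval ran from -0.043 to 0.32 and so included 0, and the unadjusted p was 0.134 in the authors' deposited table. Gars (chromosome 6, 55038007 to 55079500) was at 0.077 ± 0.091, averaging 6606 normalized counts, in the authors' deposited table (interval from -0.10 to 0.25, unadjusted p = 0.396). Aars, the alanine enzyme, had a like value of 0.076 ± 0.10 in the authors' deposited table, which became -0.00019 with the trend removed.

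The remaining genes of this group were nearer to 0. The subunits of the phenylalanine enzyme, an assembly of alpha and beta chains, were at 0.063 ± 0.13 (Farsa) and -0.028 ± 0.14 (Farsb) in the authors' deposited table, with intervals from -0.20 to 0.33 and from -0.31 to 0.25 that overlap. Farsa averaged 1539 normalized counts and had an unadjusted p of 0.635, both by the authors' deposited table. Hars, averaging 2415 normalized counts, was at -0.0096 ± 0.12 (interval from -0.24 to 0.22, unadjusted p = 0.934) in the authors' deposited table. Vars, the valine enzyme, was at -0.039 ± 0.11 in the authors' deposited table. With the trend removed it moved to -0.15, the largest shift of any member, and its transcript is also the richest in G and C, at 60.9%. Wars, the tryptophan enzyme and an interferon-γ-induced gene, was at -0.0094 ± 0.14 in the authors' deposited table. The authors' deposited table gives Tars for threonine at -0.010 ± 0.11 and Nars for asparagine at 0.017 ± 0.11. Yars was at 0.028 ± 0.12, averaging 1855 normalized counts (interval from -0.22 to 0.27, unadjusted p = 0.822) in the authors' deposited table, and Cars at 0.011 ± 0.15, averaging 1314 normalized counts (interval from -0.28 to 0.30, unadjusted p = 0.938).

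A further division of the cytosolic genes is by their known induction by ATF4, from textbook knowledge. The 12 genes of that kind (Aars, Cars, Eprs, Gars, Iars, Lars, Mars1, Nars, Sars, Tars, Wars and Yars) had 7 positive and 5 negative values with a median of 0.014, and 5 and 7 with the trend removed. The other 8 had 2 positive and 6 negative values with a median of -0.018, and 4 and 4 with the trend removed. The difference between these lists was not tested.

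A sequence search of the promoters was made for the same division, and the matches are shown because they fall in the ATF4-responsive genes while the fold changes of these genes lie near 0. The motif TGATGNAA, the core of the element to which ATF4 binds with a C/EBP partner, was searched on both strands in the RefSeq promoter table (GRCm38.p6, the assembly of mm10), which gives 250 bases before and 50 after a gene's start. Promoters were found for 27 of the 36 members, not for Cars, Hars, Lars, Nars, Rars, Vars, Wars, Hars2 and Pars2. A match stood in 5 of the 8 ATF4-responsive genes with a promoter (Aars, Gars, Iars, Tars and Yars), in 0 of 5 other cytosolic genes and in 0 of 14 mitochondrial genes. Of all 32851 promoters of that length 3.97% held it, or 4.51% of 27025 genes. Each line gives a window of 30 bases around 1 match per gene, 5′ to 3′ on the gene's own strand, with the match in capitals. Asns, the asparagine synthetase gene and a known ATF4 target, is added for comparison. It belongs to the amino acid response genes, a list described further below. Of the 17 genes of that list with a promoter, 6 held a match (35.3%), Asns among them. The others, such as Ddit3, Psat1 and Phgdh, held none.
Aars, chr8:111033840-111033869: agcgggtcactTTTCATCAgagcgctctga
Gars, chr6:55037960-55037989: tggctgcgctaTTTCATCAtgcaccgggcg
Iars, chr13:49682126-49682155: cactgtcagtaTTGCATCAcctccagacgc
Tars, chr15:11399655-11399684: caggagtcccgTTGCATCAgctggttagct
Yars, chr4:129189895-129189924: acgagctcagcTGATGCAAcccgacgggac
Asns, chr6:7693214-7693243: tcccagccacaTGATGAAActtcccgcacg
In Aars, Gars, Iars and Tars the match is the reverse complement of the motif, and in Yars and Asns it reads as written. The matches shown lie close to the start in Gars (first base at -30), Tars (-15), Iars (8), Yars (4) and Aars (10), counted from the start base as 1 with no 0. The log2 fold changes of these 5 genes ran from -0.033 (Iars) to 0.077 (Gars) in the authors' deposited table, 3 above 0 and 2 below, with a median of 0.028. A match is a description of the letters in the window, and binding of ATF4 was not measured.

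Mitochondrial synthetases had 9 positive and 7 negative log2 fold changes with a median of 0.0022, and after removal of the GC and length trend 7 and 9. Vars2, for valine (chromosome 17, 35655634 to 35667592; ENSMUSG00000038838.15), had the largest estimate of the family at 0.22 ± 0.24, averaging 369.7 normalized counts, in the authors' deposited table. Its interval ran from -0.25 to 0.68 (unadjusted p = 0.358 in the authors' deposited table), and with the trend removed the value was 0.13. Lars2, for leucine (chromosome 9, 123366927 to 123462666; ENSMUSG00000035202.8), had the lowest at -0.20 ± 0.22, averaging 423 normalized counts, in the authors' deposited table (interval from -0.63 to 0.23, unadjusted p = 0.357). Tars2 (chromosome 3, 95739976 to 95760206) was at -0.10 ± 0.16, averaging 927 normalized counts, in the authors' deposited table (interval from -0.41 to 0.21, unadjusted p = 0.534). These estimates are larger than most cytosolic ones, but so are their SE, and each of these intervals includes 0.

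Iars2 was the best measured mitochondrial gene, at -0.0085 ± 0.12, averaging 1909 normalized counts, in the authors' deposited table (interval from -0.25 to 0.23, unadjusted p = 0.945). The authors' deposited table has Sars2 for serine at -0.10 ± 0.30 and Rars2 at -0.082 ± 0.22, the latter averaging 433 normalized counts, with its interval from -0.51 to 0.34 (unadjusted p = 0.706). Ears2, which charges glutamate onto the transfer RNAs for glutamate and, as a first step, for glutamine, was at 0.11 ± 0.35, averaging 150.4 normalized counts, in the authors' deposited table (interval from -0.58 to 0.80, unadjusted p = 0.759). On the positive side the authors' deposited table also has Aars2 for alanine at 0.084 ± 0.27 and Fars2, a single-chain phenylalanine enzyme, at 0.070 ± 0.31. Aars2 turned to -0.013 with the trend removed. At most 0.022 in size were Mars2 (0.022 ± 0.23), Hars2 (0.022 ± 0.23), Yars2 (0.013 ± 0.27), Cars2 (0.0014 ± 0.26) and Pars2 (-0.0094 ± 0.38) in the authors' deposited table.

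The least abundant members had the widest intervals. Wars2, for tryptophan, had the lowest mean, 105 normalized counts, and was at -0.038 ± 0.42 in the authors' deposited table. Its interval ran from -0.86 to 0.79, the widest of the family (unadjusted p = 0.929 in the authors' deposited table). Nars2, for asparagine, was at 0.0031 ± 0.34, averaging 167 normalized counts, in the authors' deposited table (interval from -0.66 to 0.67, unadjusted p = 0.993). A log2 difference of -0.86 in Wars2, or of 0.67 in Nars2, would lie within these intervals. The size that the adjusted test could detect is larger and was not computed.

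Every member's interval included 0, so the intervals of the partners for a single amino acid had to overlap in all 17 pairs. That overlap therefore does not show whether the partners differ. The largest gaps in log2 fold change, cytosolic minus mitochondrial, were -0.26 for valine, 0.24 for serine, -0.20 for glutamate and 0.20 for leucine. In 3 of these 4 the mitochondrial gene was the farther from 0, and for serine it was the cytosolic gene Sars. No test of these gaps was run, since values per culture were not used.

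By catalytic fold the synthetases form class I, with a Rossmann fold, and class II, built on an antiparallel sheet. The 19 genes counted as class I, Eprs among them although it holds a catalytic part of each, had 9 positive and 10 negative values with a median of -0.0067. The 17 class II genes had 9 positive and 8 negative values with a median of 0.0031. With the trend removed these counts became 6 and 13 for class I and 10 and 7 for class II.

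The genes around the synthetases were taken as lists by their roles. Of 14 genes for charging accessories, such as the scaffold proteins, the transfer RNA export factor Xpot and the subunits of the mitochondrial enzyme that makes glutaminyl-tRNA (Qrsl1, Gatb and Gatc), 0 passed. They had 5 positive and 9 negative values with a median of -0.013, and 9 and 5 with the trend removed. At the negative end beside Aimp2 the authors' deposited table has Gatb at -0.091 ± 0.30 and Qrsl1 at -0.076 ± 0.27. At the positive end were Dtd1, which removes D-amino acids from transfer RNA, at 0.075 ± 0.23, and Aarsd1, an editing factor for mischarged alanine transfer RNA, at 0.67 ± 1.39 (only 11.2 normalized counts), in the authors' deposited table.

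Of the 19 genes of the amino acid response 0 passed, with 13 positive and 6 negative values and a median of 0.073, or 11 and 8 with the trend removed. Atf4 mRNA was at 0.033 ± 0.11, averaging 4166 normalized counts, in the authors' deposited table, and Eif2ak4, the gene of GCN2, at -0.044 ± 0.19. ATF4 is controlled mainly by translation, so its mRNA does not report its activity. Its target Asns was at 0.12 ± 0.14 with an interval from -0.15 to 0.38 in the authors' deposited table. The largest Wald statistics were those of Eif4ebp1, a translation repressor, at 0.19 ± 0.16, and Ddit4, an inhibitor of mTORC1, at 0.15 ± 0.14 in the authors' deposited table. On the negative side the authors' deposited table has Vldlr at -0.29 ± 0.45 and Atf5 at -0.12 ± 0.35.

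Amino acid transporters had 7 positive and 1 negative value among 8 genes, with a median of 0.030, and 4 and 4 with the trend removed, and 0 passed. Slc7a5, the leucine carrier LAT1 that activated T cells need, was the negative one at -0.038 ± 0.12, averaging 3193 normalized counts, in the authors' deposited table. Slc1a4, a carrier of alanine and serine, was at 0.27 ± 0.26 and Slc7a11, the cystine carrier, at 0.57 ± 0.65 (only 49.3 normalized counts) in the authors' deposited table.

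**Figure D4:**
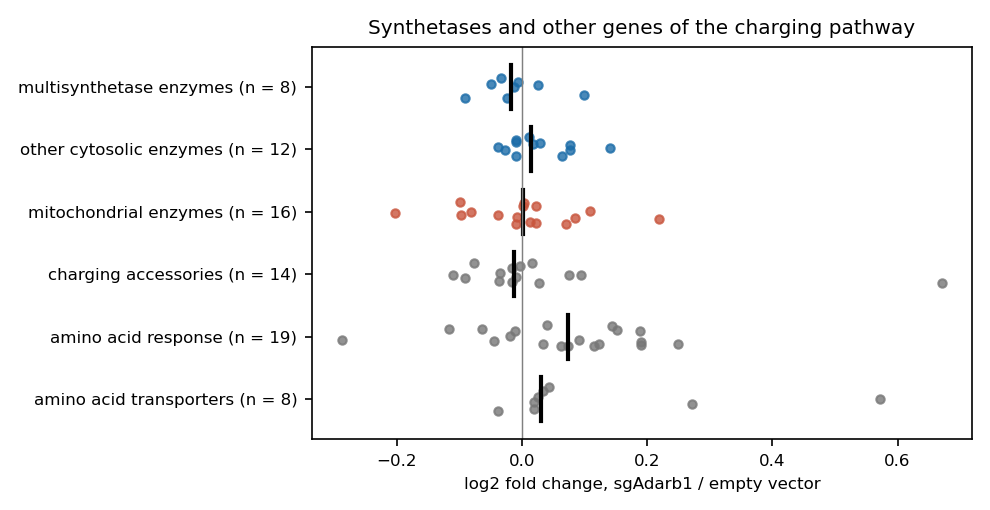
Log2 fold change (x axis) of single genes in 6 lists, with the black bar at the median of each list; points are spread vertically for legibility. The synthetase groups have medians between -0.018 and 0.014, the amino acid response genes 0.073 and the transporters 0.030, and no gene shown passed the test.

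Base composition of the transcripts moved with the fold changes. Over the 36 members the fold change was higher at higher GC content of the longest transcript (Pearson r = 0.27, Spearman rho = 0.31). For the 20 cytosolic genes r was 0.37 and rho 0.50, and for the 16 mitochondrial genes 0.22 and 0.065. Over the 9550 genes averaging at least 100 r was 0.29 and rho 0.32. Over the 14547 averaging at least 10, on which the trend was fitted, they were 0.17 and 0.24. These are descriptions over genes that share the same libraries. The 18 members of lower GC (38.8 to 49.4%) had 7 positive and 11 negative values with a median of -0.0093. The 18 of higher GC (50.3 to 60.9%) had 11 positive and 7 negative values with a median of 0.027. Removal of the trend changed the sign of 10 of the 36 members, which were at most 0.084 in size before (Aars2) and 0.052 after (Dars), and the part of base composition was not otherwise tested.

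Several members share exonic bases with a neighbour on the opposite strand, and whether the authors counted by strand is not stated in the labels, so reads of the partners may not be told apart. Hars and Hars2 start head to head and share 195 exonic bases, and Mars1 shares 68 with Ddit3. Iars2 shares 2034 exonic bases with Rab3gap2 (mean 1167), Fars2 shares 501 with Nrn1 (mean 1410) and Cars2 shares 422 with Naxd (mean 319) in the authors' deposited table. These neighbours did not pass the test either, with Rab3gap2 at -0.13 ± 0.14, Nrn1 at -0.13 ± 0.17 and Naxd at 0.089 ± 0.25 in the authors' deposited table. Aars shares 1326 exonic bases on its own strand with Exosc6, which is listed at a mean of 0.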

How the data were processed

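RNA of 4 cultures was sequenced from ribosome-depleted libraries. Per the submitters' processing notes, the build was mm10 and the tools were DESeq2 1.18.1, STAR 2.6.1a and featureCounts. Their annotation, strand setting, model formula and any donor term are not stated in the labels. Per the file headers, each gene has from the authors a mean signal (counts divided by size factors, averaged over libraries), a log2 fold change with its SE, a Wald score equal to their quotient, and a p-value with an adjusted p-value, which a Benjamini-Hochberg adjustment of the p-values of 29383 genes gave back. Another 26067 genes were listed at a mean of 0. In addition there are 4 per-library columns with names that fit no sample label, and they were not used. The count tests planned for labelled columns (edgeR, DESeq2) were therefore not run, and the authors' deposited test at an adjusted p of 0.05 was used, as planned for that case.

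All 55450 identifiers matched GENCODE M21, the source of symbols, positions and lengths. Intervals are 95% normal intervals from the deposited SE. The trend is a linear fit of fold change on GC content and log2 length over genes averaging at least 10 normalized counts, tested on simulated data (Python 3.11.15, numpy 2.4.6, pandas 2.3.3, scipy 1.17.1). The mean, fold change, SE, interval and unadjusted p are given for the 4 members of smallest unadjusted p in each direction and the 3 highest and 3 lowest levels per length in each compartment. Of other lists, fixed genes and up to 2 more per direction by Wald statistic are named. The members and lists were chosen with earlier results of these data known. Whether cultures came from separate infections is not stated beyond the 2 donors, so p-values refer to these libraries only. For the members they rest on SE from 0.978 to 1.10 times the running median SE of genes with a like mean. How far a gene's own spread between libraries enters them is therefore not shown. 1 further marker gene and 1 further promoter match are not reported here.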

Additional observations from a re-analysis of the deposited data

How the results depend on the processing

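No synthetase gene passed in any setting run: 0 of 36 when only genes averaging at least 10 or at least 50 normalized counts were adjusted, at a threshold of 0.1, with Wald statistics divided by their robust spread of 0.541, and with the linear GC and length fit subtracted. Over all genes these settings gave 3, 2, 3, 34 and 3 against 0. Fewer genes were adjusted in the first pair, and the scaling assumes that most genes do not differ. For the members, the filters on the mean and the threshold of 0.1 could not have given a pass. An adjusted p cannot lie below the unadjusted p, whose smallest value among members was 0.134 (Sars, DESeq2 Wald test). The median of the cytosolic genes ran from -0.0097 (centred on all genes) to -0.0053 (trend removed), and a mean weighted by the inverse squared SE was 0.013. For the mitochondrial genes it ran from -0.053 (the 2 genes averaging at least 500) to 0.00058 (centred), against 0.0022 as deposited. Centring changed the sign of 1 of 36 members and trend removal that of 10. The trend applied to calls and the level by longest transcript were added after seeing the data. No paired analysis was possible because no library column could be matched to a sample. Refits, other size factors and omission of a culture were not run, for that reason. Depth per library was not used, so the deposited SE limits what could be detected.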
